A study of Mus musculus with 32 samples.

Results

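The first hour of the response to lipopolysaccharide (LPS) was compared between wild-type dendritic cells and dendritic cells that lack a pair of immunoproteasome subunits. The members are the 16 libraries at 0 and 1 h of LPS, out of 32 in the series, in 4 groups of 4 replicate libraries. The genes compared are the 10902 genes with an expression level of 1 RPKM (reads scaled to gene length and to the mapped reads of the library) or more in at least 4 of these 16 libraries, out of 22216 genes listed. RNA sequencing was done on dendritic cells grown from mouse femur and tibia marrow with GM-CSF, a cytokine that supports their differentiation, and taken on culture day 9. WT no LPS and WT 1h LPS are cells of C57BL/6 mice without LPS and with LPS at 1 µg/mL for 1 h. dKO no LPS and dKO 1h LPS are cells of mice labelled Lmp7-/-Mecl1-/- on C57BL/6, with the same treatments. Lmp7 and Mecl1 are the proteins encoded by Psmb8 and Psmb10, and both alleles are lost in every cell of the mouse, so that the culture as a whole and not only its response to LPS developed without them. The labels do not say whether the 4 replicates of a group came from separate mice, so p-values measure the spread between libraries, which may be technical. These are bulk libraries, in which fewer cells of a type and less RNA per cell cannot be told apart.

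Immunoproteasomes are proteasomes in which the subunits LMP2, MECL1 and LMP7 take the place of the standard catalytic subunits. They cut proteins into peptides that are loaded onto MHC class I. LPS binds Toll-like receptor 4 and starts signalling through the adaptors MyD88 and TRIF. Within the first hour this switches on primary response genes of the NF-kappaB and AP-1 factors, among them Tnf, and, through IRF3, the gene of interferon beta. Secreted interferon beta then acts back on the cells through its receptor and the factor ISGF3, which binds the interferon-stimulated response element (ISRE) in the promoters of interferon-inducible genes.

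The quantity reported throughout is the interaction, the 1 h response in dKO minus the 1 h response in WT, where a response is the mean log2(RPKM + 0.5) at 1 h minus that at 0 h. A positive interaction means a larger rise, or a smaller fall, in dKO. Because 0.5 is added, responses and genotype differences understate the change of genes with low values, and the interaction, a difference of such differences, can be moved either way. The groups were fitted together with limma, and a gene was called when its p-value, adjusted by the Benjamini-Hochberg procedure over all 10902 genes, was below 0.05. Depth over genes was 1.27 to 1.87 Gb of aligned sequence per library, and 9269 to 10701 genes reached 1 RPKM.

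The targeted genes followed the genotype labels at both times. Psmb8 was at 193 ± 6.29 RPKM in WT and 3.98 ± 0.281 in dKO without LPS (SD, n = 4 each), 2.07% of WT. After 1 h of LPS it was at 155 ± 3.95 RPKM in WT and 3.39 ± 0.871 in dKO. Psmb10 was at 58.6 ± 2.73 RPKM in WT and 5.96 ± 2.49 in dKO without LPS, and at 42.6 ± 0.671 and 3.67 ± 0.736 after 1 h. The groups did not overlap in any of these comparisons (two-sided exact permutation p = 0.0286 for each gene and time, the smallest that 70 splits allow).

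The time labels were followed by 14 of the 16 libraries. Each library was correlated across genes with the mean WT profile at 0, 1, 2 and 6 h, as a description. A WT library did not count toward the mean it was set against. The library labelled dKO no LPS replicate 2 had r = 0.971 with WT at 1 h and 0.903 with WT at 0 h, whereas the other dKO libraries without LPS had 0.969 to 0.974 with WT at 0 h. The library labelled dKO 1h LPS replicate 2 had r = 0.977 with WT at 2 h and 0.947 with WT at 1 h, whereas the other dKO libraries at 1 h had 0.972 to 0.975 with WT at 1 h. Both libraries carried the low Psmb8 and Psmb10 of their genotype. They were not moved to another group. Interactions are therefore given without these 2 libraries, which leaves 14 libraries, 3 in each dKO group, and also with all 16 libraries as labelled. Genotype differences, responses and list counts are those without the 2 libraries unless stated.

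**Figure D1:**
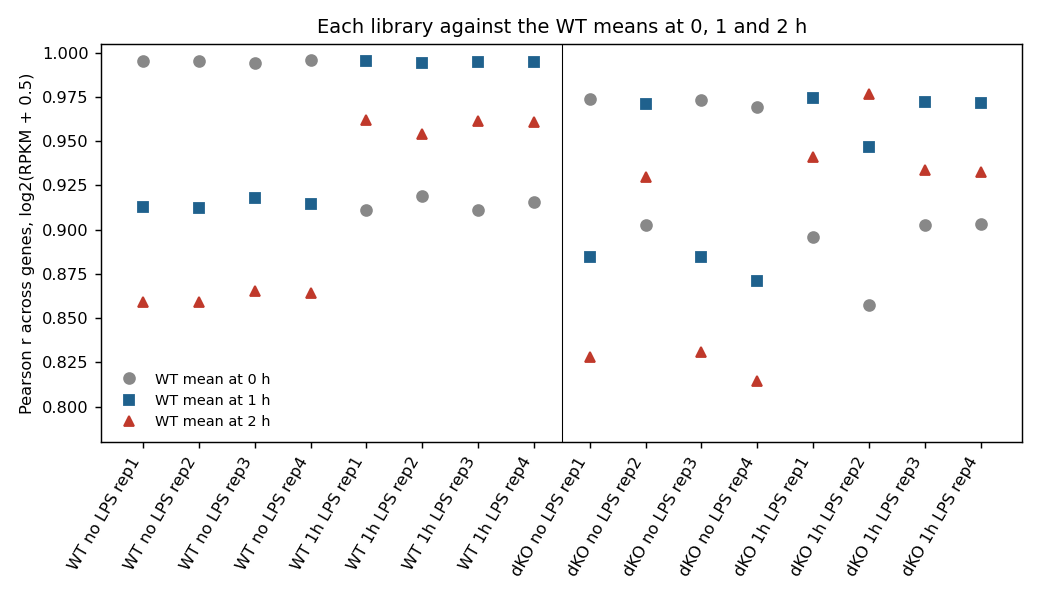
Pearson correlation across genes of each of the 16 libraries (horizontal axis) with the mean WT profile at 0 h (circles), 1 h (squares) and 2 h (triangles), on log2(RPKM + 0.5). In 14 libraries the highest symbol is that of the labelled time, in dKO no LPS rep2 it is that of 1 h (0.971) and in dKO 1h LPS rep2 that of 2 h (0.977).

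As labelled, 4 of 10902 genes were called (0.0367%), 2 above 0 and 2 below 0 (0.0183% of genes each), and 332 had an unadjusted p below 0.05. Without the 2 libraries, 217 genes were called (1.99%), 91 of them above 0 (0.835% of genes) and 126 below 0 (1.16%), and 1394 had an unadjusted p below 0.05. All 4 genes called as labelled were among the 217. The median standard error of the interaction was 0.24 as labelled and 0.13 without the 2 libraries. Of the 217 genes, 27 were above 0 and 18 below 0 by a factor of at least 2 on this scale. With the libraries rescaled by median-of-ratios size factors, 220 genes were called, with the split turned to 125 above and 95 below 0. The larger number below 0 on the deposited scale thus depended on the scaling. Of the 217 genes, 17 had an estimate of the opposite sign as labelled, among them 8 genes named here (Cxcl10, Ereg, Pmaip1, Tlr2, Tnf, Tnfsf15, Tnfsf4 and Tnip3). The median response of all genes was -0.43 in WT and -0.45 in dKO on the deposited scale and 0.01 and 0.02 after rescaling, so a response near -0.4 is that of the typical gene.

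The shared part of the response was large in both genotypes. The response of Ifnb1 was 9.53 in WT and 10.1 in dKO, that of Il6 8.69 and 8.99, and that of Tnf 7.78 and 8.41. Of the 217 genes called, 183 had responses of the same sign in both genotypes on the deposited scale and differed in size.

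**Figure D2:**
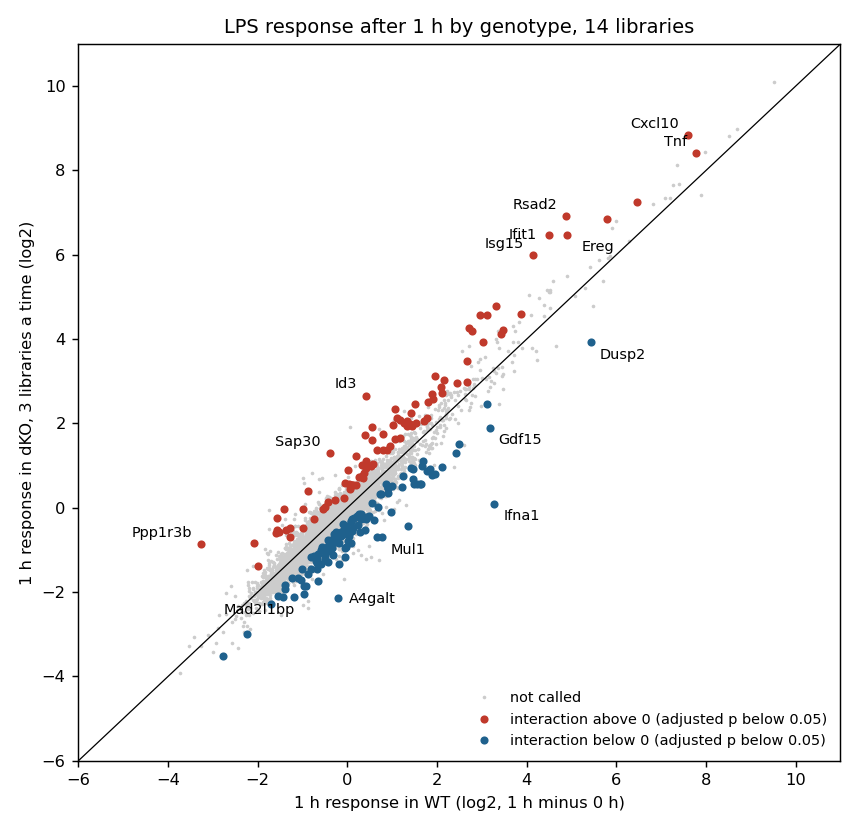
Response to 1 h of LPS in WT (horizontal axis) and dKO (vertical axis) for the 10902 genes tested, both as log2 differences, in the 14 libraries. Red points are the 91 genes called above 0 and blue points the 126 called below 0, and the diagonal marks equal responses. Ppp1r3b (-3.26 in WT, -0.86 in dKO) and Ifna1 (3.28 and 0.09) lie far from the diagonal.

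The genes with the highest and lowest interactions among those with at least 5 RPKM in a group were led by Ppp1r3b, Id3, Rsad2, Ifit1, Isg15, Sap30, Gem, Ereg, Cmpk2 and Mx2 above 0. Below 0 they were A4galt, Dusp2, Mul1, Cldn1, Gdf15, Dusp4, Gpr84, Orm2, Mad2l1bp and Gpr183. The plot of both fits shows that the errors of Rsad2, Ifit1, Isg15 and Ereg were several times larger as labelled.

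**Figure D3:**
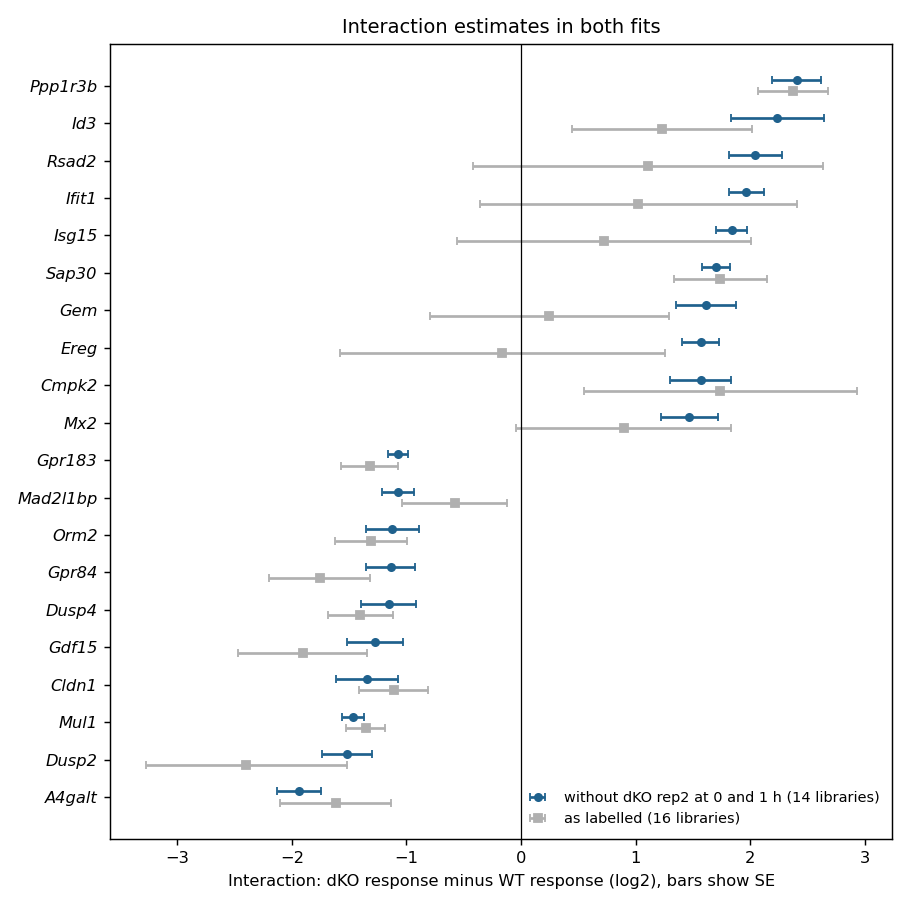
Interaction estimates (log2, dKO response minus WT response) with their standard errors for 10 genes above 0 and 10 below 0. Blue circles are the fit of 14 libraries and grey squares the fit of all 16 as labelled. For Ereg the estimate was 1.57 ± 0.16 without the 2 libraries and -0.16 ± 1.42 as labelled, while for Mul1 it was -1.47 ± 0.10 and -1.35 ± 0.17.

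A group of interferon-inducible genes had a higher 1 h response in dKO than in WT. Of 29 tested members of the list of type I interferon genes and early targets, 10 were called above 0 (Ifit1, Isg15, Rsad2, Gbp5, Ifit2, Cmpk2, Mx2, Irf7, Stat2 and Mx1) and 2 below 0 (Ifna1 and Irf5), against 1.99% of all genes called. The median interaction of the list was 0.27, against -0.04 for all genes. As labelled, none of the 10 was called, and Ifna1 was the only member that was. Without LPS, 19 of the 29 members were lower and 1 was higher in dKO than in WT, where 20.7% of all genes were lower and 7.67% higher. At 1 h, 13 members were lower and 6 higher, where 31.1% of all genes were lower and 10.8% higher.

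The promoters of 4 genes of this response are shown because they hold the ISRE, and each was induced more in dKO. The windows are of 80 bases, 5′ to 3′ on the strand of the gene, from the RefSeq promoter table of build GRCm38.p6, and capitals mark the ISRE motif as searched here, a pair of GAAA stretches separated by any 2 bases, or its reverse complement. The 80-base window of Isg15 is chr4:156200840-156200919 on the minus strand, that of Ifit1 chr19:34640769-34640848 on the plus strand, that of Rsad2 chr12:26456528-26456607 on the minus strand and that of Cxcl10 chr5:92349058-92349137 on the minus strand.
Isg15: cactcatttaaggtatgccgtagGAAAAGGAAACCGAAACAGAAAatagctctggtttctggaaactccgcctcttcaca
Ifit1: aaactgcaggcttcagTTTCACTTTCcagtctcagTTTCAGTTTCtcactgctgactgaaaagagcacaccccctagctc
Rsad2: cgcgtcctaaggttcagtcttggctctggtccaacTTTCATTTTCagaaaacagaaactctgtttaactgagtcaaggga
Cxcl10: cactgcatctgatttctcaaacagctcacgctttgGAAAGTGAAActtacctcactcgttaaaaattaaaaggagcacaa
The Isg15 window holds 3 overlapping matches, that of Ifit1 holds 2, and those of Rsad2 and Cxcl10 hold 1 each. The match nearest the gene start lies at bases -66 to -57 in Isg15, -85 to -76 in Ifit1, -120 to -111 in Rsad2 and -213 to -204 in Cxcl10.

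Motifs were searched in whole promoters, all of the same length, which are longer than the windows above and reach past the gene start. Such promoters were found for 7840 of the 10902 genes. The ISRE motif, searched on both strands, stood in 4.02% of them, in 12 of the 67 matched genes called above 0 (17.9%) and in 5 of the 90 called below 0 (5.56%). Among the 8 matched interferon-list genes called above 0, 5 held it (Stat2, Ifit1, Isg15, Rsad2 and Gbp5), and Irf7, Ifit2 and Cmpk2 did not. The AP-1 motif TGANTCA stood in 6.2% of all promoters, in 14.9% of genes above 0 and in 6.67% below 0. The kappaB motif stood in 6.43%, 11.9% and 12.2%, and the CRE motif TGACGTCA in 3.72%, 1.49% and 1.11%. The CArG motif stood in 1.48%, 0% and 3.33%, and the E2F motif TTTCCCGC in 2.54%, 1.49% and 3.33%. These shares are descriptions, and a match is not shown to be a site in use.

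Isg15 (mm9, chr4:155573533-155574927) encodes a ubiquitin-like protein that is attached to other proteins in interferon-treated cells. Without LPS it stood at 22.7, 27.8, 23.3 and 28.9 RPKM in the WT libraries and at 9.07, 7.8 and 7.03 in dKO replicates 1, 3 and 4, with 432 in replicate 2. After 1 h the values were 503, 415, 492 and 441 RPKM in WT and 527, 537 and 540.0 in dKO replicates 1, 3 and 4, with 1247 in replicate 2. Without the 2 libraries the genotypes did not overlap at either time, lower in dKO before LPS and higher at 1 h. Its interaction was 1.84 ± 0.14 (SE, limma adjusted p = 2.8e-06), from responses of 4.15 in WT and 5.99 in dKO. The difference between the genotypes, dKO minus WT, was -1.63 ± 0.10 at 0 h and 0.21 ± 0.10 at 1 h (limma adjusted p = 0.0875). As labelled the interaction was 0.72 ± 1.28.

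Ifit1 (chr19:34715379-34724499), whose protein binds foreign RNA ends, stood at 5.37, 4.84, 4.26 and 5 RPKM in WT without LPS. In dKO it stood at 1.33, 1.13 and 1.32 RPKM, with 104 in replicate 2. At 1 h the WT libraries were at 138, 94, 133 and 125 RPKM and dKO replicates 1, 3 and 4 at 159, 151 and 156, with 681 in replicate 2. The 3 remaining dKO libraries were again below every WT library at 0 h and above every WT library at 1 h. The interaction was 1.96 ± 0.15 (limma adjusted p = 3.8e-06) without the 2 libraries and 1.02 ± 1.38 as labelled.

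Rsad2 (chr12:27127608-27141317), which encodes the antiviral enzyme viperin, differed between the genotypes at both times. It stood at 4.19, 4.44, 4.84 and 4.82 RPKM in WT and at 2.89, 1.84 and 2.17 in dKO without LPS. At 1 h it stood at 189, 103, 168 and 149 RPKM in WT and at 381, 319 and 311 in dKO. The lowest dKO library at 1 h was thus well above the highest WT library, and the difference at 1 h, 1.17 ± 0.16, was larger than that of Isg15 and Ifit1. The interaction was 2.04 ± 0.23 (limma adjusted p = 0.000214), and 1.11 ± 1.53 as labelled, with replicate 2 at 232 RPKM in dKO no LPS and 2100.2 in dKO 1h LPS.

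Cxcl10 (chr5:92775667-92777880) encodes a chemokine that draws T cells, and it stands in the chemokine list. It was at 5.46, 5.7, 4.95 and 5.69 RPKM in WT and 3.31, 1.69 and 2.54 in dKO without LPS, with 1151 in replicate 2. The levels at 1 h were 1322, 1062, 1149.5 and 1123 RPKM in WT and 1561, 1260.3 and 1256 in dKO, with 3607 in replicate 2. Without replicate 2 the genotypes overlapped at 1 h and not at 0 h. The interaction was 1.24 ± 0.20 (limma adjusted p = 0.00358), with genotype differences of -1.02 ± 0.14 at 0 h and 0.22 ± 0.14 at 1 h. As labelled it was -0.56 ± 1.92, of the opposite sign and within its error. Cxcl10 was the only one of 18 tested chemokines called, where 1.99% of all genes were, and the median of the list was 0.24.

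The other members called above 0 followed in size. Cmpk2 (1.57 ± 0.27), a mitochondrial nucleotide kinase gene, Mx2 (1.47 ± 0.25), a dynamin-like antiviral GTPase gene, and Ifit2 (1.46 ± 0.23) had limma adjusted p-values of 0.00358 to 0.00579. All 3 were lower in dKO before LPS, by -1.14, -1.04 and -1.53, while at 1 h their genotype differences were 0.42, 0.43 and -0.06. Gbp5, a guanylate-binding protein gene of inflammasome assembly, had an interaction of 0.89 ± 0.12 (limma adjusted p = 0.00102) and was at 113 ± 6.78 RPKM in WT and 147 ± 7.73 in dKO at 1 h. Irf7, the factor that amplifies interferon genes, had 0.87 ± 0.19 (limma adjusted p = 0.0232) but stayed lower in dKO at both times, by -1.90 at 0 h and -1.02 at 1 h. Its WT level was 18.5 ± 0.646 RPKM at 0 h and 18.7 ± 1.7 at 1 h, against 4.71 ± 1.29 and 8.96 ± 1.07 in dKO (n = 3). The call of Irf7 was lost without WT no LPS replicate 4 (adjusted p = 0.0553) and without dKO 1h LPS replicate 1 (adjusted p = 0.0614). Stat2, a subunit of ISGF3, had 0.51 ± 0.11 (limma adjusted p = 0.0257), kept in 9 of 14 fits that each left out 1 more library. It was lost without WT no LPS replicates 2 or 4, dKO no LPS replicates 1 or 4 or dKO 1h LPS replicate 1, with adjusted p-values up to 0.0586. Mx1 had 0.91 ± 0.21 (limma adjusted p = 0.0358) and was kept in 5 of these 14 fits, with adjusted p up to 0.0946 and estimates of 0.77 to 1.09. As labelled these were 1.74 ± 1.19 for Cmpk2, 0.89 ± 0.94 for Mx2, 1.12 ± 1.10 for Ifit2, 0.54 ± 0.74 for Gbp5, 1.56 ± 0.71 for Irf7, 1.34 ± 0.59 for Stat2 and 0.99 ± 0.53 for Mx1.

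Some members of the list with low starting levels in dKO were not called. Oas1a, a sensor of double-stranded RNA, had 0.14 ± 0.15, although it was lower in dKO at 0 h, by -1.04, and at 1 h, by -0.90. Oasl1 (1.00 ± 0.30, limma adjusted p = 0.122) and Ifit3 (1.02 ± 0.32, limma adjusted p = 0.149) did not pass. The receptor chains Ifnar1 (-0.00 ± 0.09) and Ifnar2 (0.07 ± 0.09) were not called either. Irf5, a factor downstream of Toll-like receptors, was called below 0, at -0.43 ± 0.07 (limma adjusted p = 0.00648). It was at 186 ± 7.22 and 197 ± 3.59 RPKM in WT at 0 and 1 h and at 166 ± 12 and 130.4 ± 4.47 in dKO. As labelled its interaction was -0.42 ± 0.13, and the uncalled genes had 0.73 (Oas1a), 0.77 (Oasl1), 1.41 (Ifit3), 0.04 (Ifnar1) and 0.14 (Ifnar2).

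**Figure D4:**
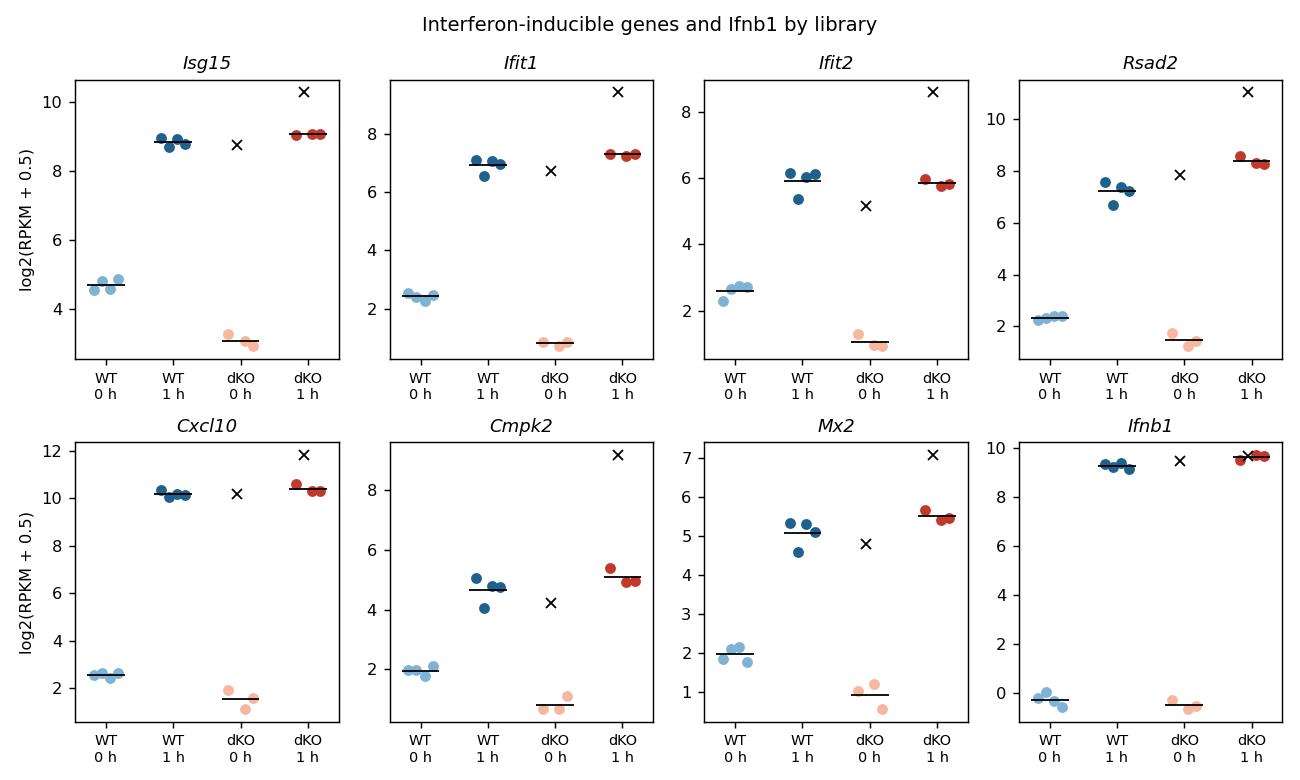
Expression as log2(RPKM + 0.5) of 7 interferon-inducible genes and of Ifnb1 in each of the 16 libraries, by genotype and time. Circles are libraries, bars are means of the libraries shown as circles, and crosses are dKO replicate 2 at 0 and 1 h, which the bars leave out. In Isg15 and Ifit1 the 3 dKO circles lie below the WT circles at 0 h and above them at 1 h.

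The interferon genes themselves were examined next. Ifnb1, the gene of interferon beta, stood at 0.353, 0.528, 0.283 and 0.179 RPKM in WT without LPS and at 641, 584, 652 and 565 at 1 h. In dKO replicates 1, 3 and 4 it stood at 0.313, 0.133 and 0.197 RPKM without LPS and at 714, 826 and 798 at 1 h, with 799 in replicate 2. All dKO libraries at 1 h were above the 4 WT libraries, without replicate 2 by 0.35 ± 0.12 (limma adjusted p = 0.0252). Its interaction was 0.57 ± 0.17 and did not pass (limma adjusted p = 0.107). As labelled it was -1.90 ± 2.18, with dKO no LPS replicate 2 at 692 RPKM.

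Ifna1 (chr4:88495991-88496560), one of the interferon alpha genes, was the lowest of the named genes in both fits. It is listed at 0 in all 4 WT libraries without LPS and at 3.21, 4.41, 3.92 and 6.43 RPKM in WT at 1 h. In dKO it is listed at 0, 0.0945, 0 and 0 RPKM without LPS and at 0, 0.0938, 0.098 and 0 at 1 h. The highest dKO library was thus far below the lowest WT library at 1 h. Ifna1 passed the filter on RPKM through the WT libraries at 1 h alone, and its dKO values were near the floor at both times. The interaction was -3.22 ± 0.24 as labelled (limma adjusted p = 6.14e-06) and -3.20 ± 0.25 without the 2 libraries (limma adjusted p = 3.8e-06). The interferon alpha genes are near-identical copies on 1 chromosome and reads may be split among them, so this value is uncertain. Of the other copies, Ifna4 had -0.69 ± 0.19 (limma adjusted p = 0.0792), Ifna5 -0.91 ± 0.35 (limma adjusted p = 0.273) and Ifna2 -0.11 ± 0.18 (limma adjusted p = 0.87), and as labelled they had -1.80 ± 0.94, -1.75 ± 0.67 and -1.07 ± 0.76. At 1 h these stood in dKO at 13.5 ± 2.03, 2.47 ± 1.43 and 5.63 ± 0.529 RPKM and in WT at 23 ± 4.31, 4.88 ± 1.76 and 6.19 ± 1.16.

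Primary response genes were among those that rose more in dKO. Ereg, which encodes the growth factor epiregulin, stood at 0.0267, 0.0114, 0.0499 and 0.0221 RPKM in WT and 0.029, 0.0489 and 0.0229 in dKO without LPS, with 44.7 in replicate 2. After 1 h of LPS it stood at 14.2, 12.7, 15.7 and 19.2 RPKM in WT and at 51.1, 44 and 45.5 in dKO, with 32.5 in the library labelled dKO 1h LPS replicate 2. All 4 dKO libraries at 1 h were above every WT library. The WT libraries at 2 h were at 10.9 ± 1.73 RPKM, also below every dKO library at 1 h. The interaction was 1.57 ± 0.16 (limma adjusted p = 8.38e-05), from responses of 4.90 and 6.47, and -0.16 ± 1.42 as labelled. The genotype difference was 0.02 ± 0.11 at 0 h and 1.58 ± 0.11 at 1 h.

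Jun, a subunit of AP-1, had an interaction of 0.95 ± 0.18 (limma adjusted p = 0.011) and 0.37 ± 0.44 as labelled. It stood at 42.6, 42.9, 44.8 and 38.7 RPKM in WT and 56.1, 56.5 and 44.2 in dKO without LPS, with 179 in replicate 2. After 1 h the values were 72.7, 91.4, 72.6 and 61.7 RPKM in WT and 146, 188 and 197 in dKO, with 120.3 in replicate 2. Without replicate 2 the genotypes overlapped at 0 h and stood apart at 1 h. It was the only one of 12 tested AP-1 genes called, where 1.99% of all genes were, and the median of that list was 0.12. In WT at 2 h Jun was at 32.9 ± 3.92 RPKM.

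Tnf, the gene of tumour necrosis factor, was one of the most abundant induced genes. It stood at 23.5, 25.8, 20.5 and 20.0 RPKM in WT and 18.5, 18.3 and 14.8 in dKO without LPS, with 6059.8 in replicate 2. At 1 h it stood at 5171, 5184, 5048 and 4726 RPKM in WT and 6018, 5942 and 5959 in dKO, with 4031 in replicate 2. The remaining dKO libraries were below all WT libraries at 0 h and above them at 1 h. The interaction was 0.62 ± 0.12 (limma adjusted p = 0.0141), and quantile normalization ended the call. As labelled it was -1.63 ± 1.85, of the opposite sign and within its error. Among 24 tested cytokine genes, Tnf, Tnfsf4 and Tnfsf15 were called above 0 and Gdf15 and Ebi3 below 0, where 0.835% and 1.16% of all genes were, with a list median of 0.14.

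Tnfsf4, the gene of OX40 ligand, which costimulates T cells, had 0.68 ± 0.13 (limma adjusted p = 0.0138) and -0.10 ± 0.86 as labelled. It was lower in dKO at both times, at 6.99 ± 1.16 against 19.7 ± 1.76 RPKM at 0 h and 128 ± 5.68 against 217 ± 15.8 at 1 h. Tnfsf15, the gene of the cytokine TL1A, had 0.81 ± 0.19 (limma adjusted p = 0.0358) and was kept in 5 of 14 fits that each left out 1 more library (adjusted p up to 0.0874), and as labelled it was -0.40 ± 1.59. Il6, the gene of interleukin-6, was at 935, 890.2, 849 and 867 RPKM in WT at 1 h and at 1292, 940.0 and 921 in dKO, with 1513 in replicate 2. These overlapped, and its interaction of 0.30 ± 0.30 was not called (limma adjusted p = 0.753), with -1.84 ± 2.02 as labelled.

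Other single genes were also called above 0. Tlr2, the receptor for bacterial lipoproteins, had 0.61 ± 0.10 (limma adjusted p = 0.00328) and -0.19 ± 0.60 as labelled, and was at 557 ± 36.1 RPKM in WT and 675 ± 36 in dKO at 1 h. It was the only one called of 22 tested genes of the Toll-like receptor and adaptor list, which does not hold Tlr11. Of all genes, 1.99% were called. Id2 (0.49 ± 0.08, limma adjusted p = 0.00439) and Id3 (2.24 ± 0.41, limma adjusted p = 0.00866) encode inhibitors of helix-loop-helix factors that shape dendritic cell lineages. Id2 was at 746 ± 3.44 RPKM in WT and 1126 ± 4.45 in dKO at 1 h, and Id3 at 1.28 ± 0.584 and 9 ± 1.03. The call of Id2 ended under quantile normalization. Gem, a small GTPase gene, had 1.61 ± 0.26 (limma adjusted p = 0.00422). Its difference lay at 0 h, where it was at 2.12 ± 0.692 RPKM in WT and 0.425 ± 0.254 in dKO, and not at 1 h, where it was at 19.5 ± 1.69 and 21.1 ± 1.14. As labelled the interactions were 0.04 ± 0.32 for Id2, 1.23 ± 0.79 for Id3 and 0.25 ± 1.04 for Gem.

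Sap30, a subunit of the SIN3 histone deacetylase complex, had responses of -0.39 in WT and 1.30 in dKO. It stood at 18.4, 21.4, 18.8 and 23 RPKM in WT and 17.5, 17.3 and 13.9 in dKO without LPS, with 37 in replicate 2. The levels at 1 h were 15.4, 14.9, 15.7 and 15.3 RPKM in WT and 42.8, 38.6 and 40.9 in dKO, with 103 in the library labelled dKO 1h LPS replicate 2. The dKO libraries at 1 h were above all WT libraries at 0 and 1 h. The interaction was 1.70 ± 0.12 without the 2 libraries (limma adjusted p = 2.75e-06) and 1.74 ± 0.41 as labelled (limma adjusted p = 0.401). In WT Sap30 reached 66.5 ± 4.68 RPKM at 2 h, above the dKO level at 1 h.

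Ppp1r3b (chr8:36438795-36451191), which encodes a subunit that targets protein phosphatase 1 to glycogen, was one of the 4 genes called in both fits and had the highest estimate of the named genes. It stood at 17.1, 19.1, 16.1 and 18.8 RPKM in WT and 21.5, 10.6, 13.3 and 17.1 in the 4 dKO libraries without LPS. After 1 h of LPS it stood at 1.16, 1.98, 1.4 and 1.17 RPKM in WT and 8.26, 5.07, 9.55 and 9.66 in dKO. All 4 dKO libraries, replicate 2 included, were above every WT library at 1 h. The interaction was 2.37 ± 0.31 as labelled (limma adjusted p = 0.00288) and 2.40 ± 0.21 without the 2 libraries (limma adjusted p = 1.46e-05). The WT level stayed low at 2 h, at 1.58 ± 0.56 RPKM. Slc2a1, the glucose transporter GLUT1, also had the smaller drop in dKO, with responses of -0.55 and -0.02 and an interaction of 0.53 ± 0.11 (limma adjusted p = 0.0222). Its call was lost without WT no LPS replicate 1, WT 1h LPS replicate 4 or dKO 1h LPS replicates 3 or 4 (adjusted p up to 0.0614). Pfkfb3, which makes the activator of phosphofructokinase, went the other way, at -0.76 ± 0.15 (limma adjusted p = 0.0141). Thus 1 member above and 1 below 0 were called among 23 tested glycolysis and hypoxia genes, against 0.835% and 1.16% of all genes. Quantile normalization ended the calls of Slc2a1 and Pfkfb3. As labelled Slc2a1 had 0.29 ± 0.19 and Pfkfb3 -0.59 ± 0.32.

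Tlr11, named after its values were seen because it is the remaining gene called above 0 as labelled, had 1.36 ± 0.17 (limma adjusted p = 0.00286) and 1.38 ± 0.16 without the 2 libraries. This Toll-like receptor of protozoan profilin was at 3.6 ± 0.347 RPKM in WT at 0 h and 1.05 ± 0.113 at 1 h. In dKO it was at 0.0752 ± 0.0325 and 0.0638 ± 0.0261 RPKM, so the interaction records a fall in WT of a gene that was near 0 in dKO throughout.

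The MAP kinase phosphatase gene Dusp2 was induced less in dKO, and so was Dusp4, which was under 1 RPKM in every dKO library at 0 and 1 h. Dusp2, a nuclear phosphatase of these kinases, stood at 0.185, 0.065, 0.375 and 0.112 RPKM in WT and 0.444, 0.125 and 0.137 in dKO without LPS, with 10 in replicate 2. After 1 h the values were 29.4, 26.9, 30.4 and 28.3 RPKM in WT and 10.3, 9.67 and 11.4 in dKO, with 13.4 in the library labelled dKO 1h LPS replicate 2. All 4 dKO libraries lay below every WT library at 1 h. The interaction was -1.52 ± 0.22 (limma adjusted p = 0.00163), and as labelled -2.40 ± 0.88. With a pseudocount of 0.1 the call ended. Dusp4 had -1.16 ± 0.24 (limma adjusted p = 0.0203), with 5.4 ± 0.929 RPKM in WT and 0.789 ± 0.141 in dKO at 1 h. The dKO libraries reached at most 0.64 RPKM without LPS and 0.881 at 1 h, so Dusp4 passed the filter through WT libraries alone. It is counted in the list below all the same. Its call ended without dKO 1h LPS replicate 3 (adjusted p = 0.0598) and with a pseudocount of 0.1. Of 7 tested dual specificity phosphatases, these 2 were called below 0 and none above, where 1.16% of all genes were below 0 and 0.835% above, with a list median of -0.53 against -0.04 for all genes. Dusp14 (-0.73 ± 0.19, limma adjusted p = 0.0559) and Dusp5 (-0.53 ± 0.17, limma adjusted p = 0.174) did not pass, and Dusp1, which acts on p38 and JNK, had 0.08 ± 0.25. As labelled the values were -1.40 ± 0.28 for Dusp4, -1.45 for Dusp14, -1.06 for Dusp5 and -1.13 for Dusp1.

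Gdf15, a stress-induced cytokine of the TGF-beta family, was lower in dKO at both times and rose less. It stood at 6.18, 7.41, 9.85 and 6.28 RPKM in WT and 1.74, 1.95 and 1.24 in dKO without LPS, with 10.1 in replicate 2. At 1 h it stood at 65.4, 93, 62.8 and 62.9 RPKM in WT and 6.55, 6.34, 7.01 and 8.94 in the 4 dKO libraries. The highest dKO library at 1 h was below the highest WT library at 0 h and above the other WT libraries at 0 h. Without replicate 2 the dKO level at 1 h was 7.5 ± 1.27 RPKM, and the WT level at 0 h was 7.43 ± 1.71. The interaction was -1.27 ± 0.24 (limma adjusted p = 0.0127) and -1.91 ± 0.56 as labelled (limma adjusted p = 0.897).

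Mul1 (chr4:137990587-137998180), a ubiquitin ligase of the outer mitochondrial membrane, was called below 0 in both fits. Without LPS it stood at 7, 6.98, 6.95 and 6.61 RPKM in WT and 6.15, 4.06, 6.61 and 5.43 in the 4 dKO libraries. The levels at 1 h were 12.3, 12.2, 11.7 and 12.1 RPKM in WT and 3.3, 3.34, 3.7 and 3.59 in dKO. All 4 dKO libraries at 1 h were below every WT library at 0 h. The interaction was -1.35 ± 0.17 as labelled (limma adjusted p = 0.00286) and -1.47 ± 0.10 without the 2 libraries (limma adjusted p = 2.22e-06), from responses of 0.77 in WT and -0.70 in dKO. The WT level was 17.6 ± 0.717 RPKM at 2 h.

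A pair of G protein-coupled receptors was also induced less. Gpr183, the oxysterol receptor that guides dendritic cells in lymphoid tissue, stood at 13.2, 13.2, 13.6 and 11.8 RPKM in WT without LPS and 25.7, 27.2, 24.2 and 25.9 at 1 h. In dKO replicates 1, 3 and 4 it stood at 16.2, 16.4 and 16.5 RPKM without LPS and 16, 15.7 and 13.9 at 1 h, with 16.3 and 7.33 in replicate 2. It was thus higher in dKO at 0 h and lower at 1 h, with no overlap. The interaction was -1.07 ± 0.09 (limma adjusted p = 8.86e-06) and -1.32 ± 0.25 as labelled (limma adjusted p = 0.0833). Gpr84, a receptor for medium-chain fatty acids, had -1.14 ± 0.21 (limma adjusted p = 0.011) and was at 46.5 ± 2.44 RPKM in WT and 21.6 ± 6.35 in dKO at 1 h, from 8.21 ± 0.639 and 8.42 ± 1.95 without LPS, with an interaction of -1.76 ± 0.44 as labelled.

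Other genes induced less had fragile calls. Trib1, a pseudokinase that marks C/EBP factors for degradation, had -0.80 ± 0.17 (limma adjusted p = 0.0259) and was kept in 9 of 14 fits that each left out 1 more library (adjusted p up to 0.0659). Ebi3, the shared chain of interleukins 27 and 35, had -0.40 ± 0.09 (limma adjusted p = 0.0358) and was kept in 4 of them (adjusted p up to 0.105). Orm2, an acute phase protein gene, was higher in dKO at both times, at 6.91 ± 0.653 against 0.582 ± 0.106 RPKM without LPS, and had -1.12 ± 0.23 (limma adjusted p = 0.0184). Its call ended without dKO 1h LPS replicate 3 (adjusted p = 0.0571) or replicate 4 (adjusted p = 0.0547) and after median-of-ratios scaling (adjusted p = 0.0687). As labelled Trib1 had -1.62 ± 0.57, Ebi3 -0.31 ± 0.15 and Orm2 -1.31 ± 0.32.

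A further group was lower at 1 h than at 0 h in both genotypes on the deposited scale, with the larger drop in dKO. The WT response of one of them, Mapkapk3, was -0.43, that of the median gene. Klf2, a factor that holds down inflammatory genes, stood at 16.7, 15.9, 14.1 and 18.6 RPKM in WT and 21.2, 21.7 and 24 in dKO without LPS, with 6.8 in replicate 2. After 1 h of LPS it stood at 8.57, 8.63, 8.09 and 7.87 RPKM in WT and 6.01, 4.53 and 7.12 in dKO, with 5.54 in replicate 2. Without replicate 2 the dKO libraries were above the WT libraries before LPS and below them at 1 h. The interaction was -0.92 ± 0.16 (limma adjusted p = 0.00719) and -0.53 ± 0.40 as labelled. Klf2 was the only one called of 17 genes of the EGR, NR4A, IER and Myc list, where 1.99% of all genes were called.

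Mad2l1bp, which opens the mitotic checkpoint complex, had -1.07 ± 0.14 (limma adjusted p = 0.000852) and was at 7.83 ± 0.61 RPKM in WT and 2.51 ± 0.239 in dKO at 1 h. Tgfbr1, the kinase receptor for TGF-beta, had -0.55 ± 0.08 (limma adjusted p = 0.00105), with 41.5 ± 2.4 RPKM in WT and 25 ± 1.06 in dKO at 1 h. Mapkapk3, a kinase downstream of p38, had -0.47 ± 0.07 (limma adjusted p = 0.00239), with 59.8 ± 1.81 and 38.6 ± 2.89 RPKM. These 3 did not overlap between the genotypes at 1 h, where 31.1% of all genes were called lower in dKO. The share of all genes without overlap was not computed. As labelled they had -0.58 ± 0.46, -0.64 ± 0.41 and -0.32 ± 0.20. Mapkapk3 was the only one called of 22 tested MAP kinase cascade genes, where 1.99% of all genes were called. In a further list of signalling and transcription genes (TGF-beta receptors and FOXO, MEF2, C/EBP and Id factors among them), 2 of 20 tested members were above 0 (Id2 and Id3) and 1 below (Tgfbr1). Of all genes, 0.835% were called above 0 and 1.16% below 0.

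A4galt, which makes the glycolipid globotriaosylceramide, was near 0 in WT. It was at 0.144 ± 0.0782 RPKM in WT and 6.57 ± 0.228 in dKO without LPS, and at 0.0586 ± 0.0563 and 1.11 ± 0.189 at 1 h. The interaction of -1.94 ± 0.19 (limma adjusted p = 6.52e-05) records a fall in dKO of a gene near 0 in WT, and the call ended with a pseudocount of 0.1. As labelled it was -1.62 ± 0.48.

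**Figure D5:**
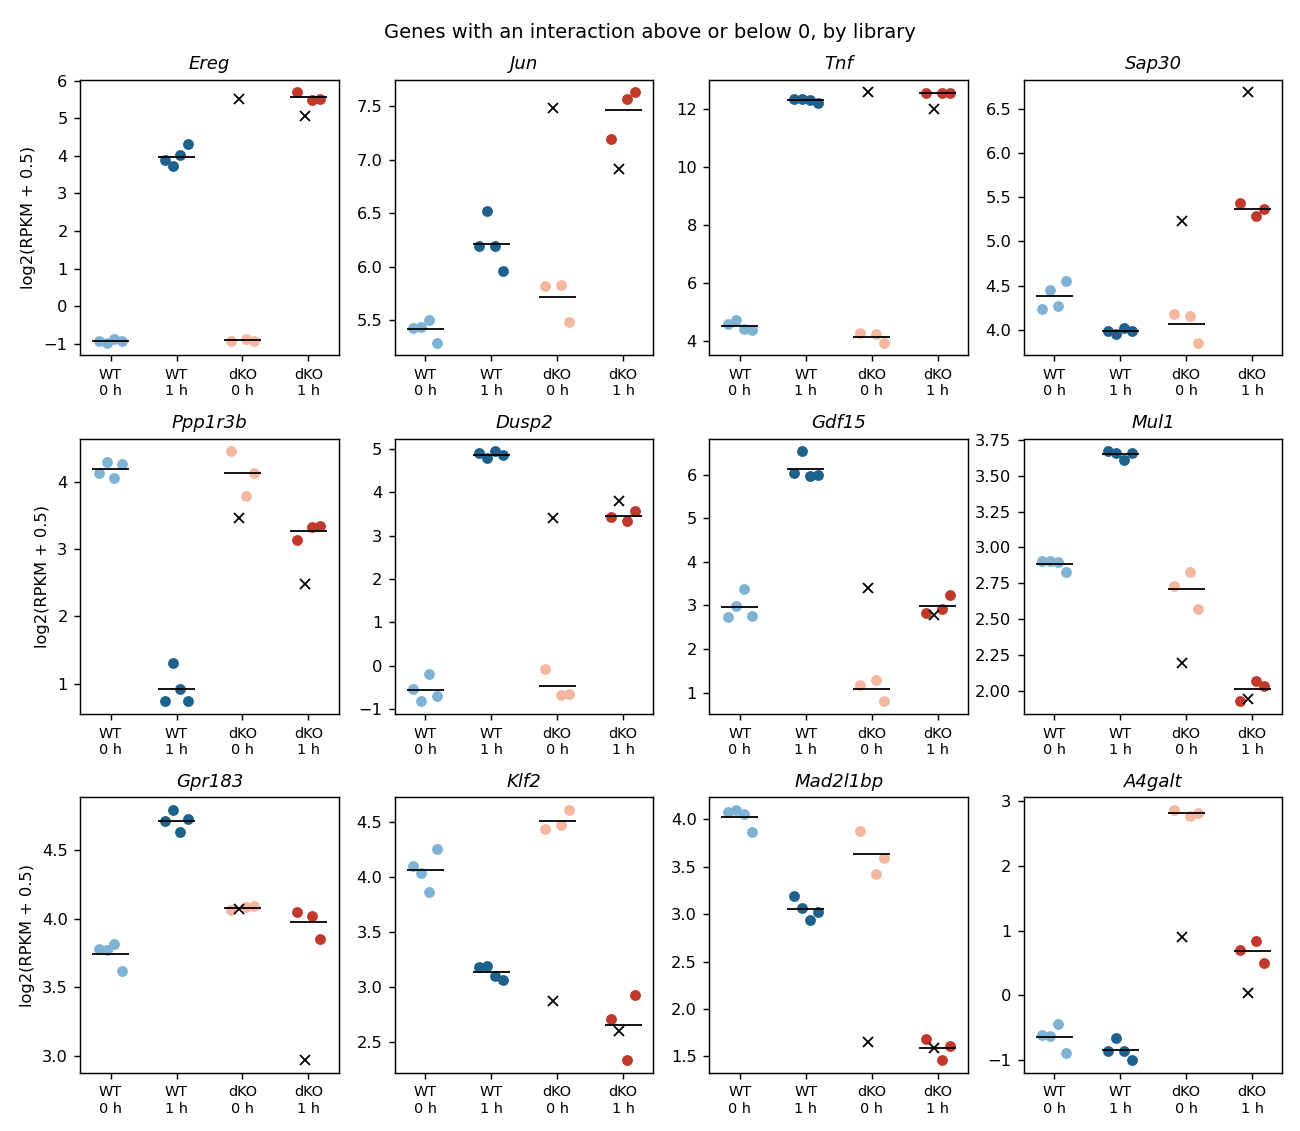
Expression as log2(RPKM + 0.5) of 12 genes with an interaction above or below 0 in each of the 16 libraries, by genotype and time, on a scale of its own in each panel. Circles are libraries, bars are means of the circles, and crosses are dKO replicate 2 at 0 and 1 h. In Mul1 and Gdf15 the crosses at 1 h lie with the other dKO libraries, and in Sap30 the cross at 1 h lies above them.

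Cldn1, a tight junction gene of Langerhans cells, had -1.35 ± 0.27 (limma adjusted p = 0.0155), a call that ended under quantile normalization and without the filter on low values. As labelled it was -1.11 ± 0.30. It was at 23.2 ± 4.88 and 36.4 ± 3.55 RPKM in WT at 0 and 1 h and at 4.57 ± 1.21 and 2.67 ± 0.903 in dKO. The 4 Langerhans-like markers (Cd207, Epcam, Cldn1 and Cdh1) summed to 86.5 to 125 RPKM, over the 14 libraries, in WT no LPS, 90.1 to 105 in WT 1h LPS, 47 to 57.9 in dKO no LPS and 24.7 to 28.9 in dKO 1h LPS, and the mean of Cd207 was under 0.1 RPKM in both dKO groups. Granulocyte markers summed to 589 to 746, 861 to 1303, 209 to 277 and 365 to 431 RPKM in the same order of groups. Mast cell, basophil and eosinophil markers summed to 387 to 502, 675 to 992, 182 to 253 and 302 to 388 RPKM, and macrophage markers to 3435 to 3886, 2308 to 3051, 2639.8 to 3165 and 2140.6 to 2342. Plasmacytoid dendritic cell markers summed to 184 to 199, 155 to 189, 81.5 to 127 and 96.3 to 102 RPKM, with Siglech under 0.1 on average in both dKO groups, and erythroid and platelet markers to 3.05 to 6.80 RPKM. Markers that define dendritic cells summed to 8199 to 12477 RPKM over the 14 libraries, and B cell, T and NK cell and stromal markers to at most 2.41. A sum mostly reflects its most abundant members. Of 8 tested markers that define dendritic cells, 4 were lower and 0 higher in dKO at 0 h, and likewise at 1 h. At 0 h Cd209a had the lowest difference of the 8, below that of Ccr7. Ccr7 differed by -1.18, Dpp4 by -0.86 and Zbtb46 by -0.52, while Cd74 differed by -0.03 and H2-Ab1 by -0.01. Clec9a (0.45) and Itgax (0.08) went the other way at 0 h, and neither was called higher. Of 13 tested macrophage markers, 4 were lower and 5 higher in dKO at 0 h, and 3 lower and 5 higher at 1 h. For comparison with both marker lists, 20.7% of all genes were lower and 7.67% higher at 0 h. At 1 h, 31.1% of all genes were lower and 10.8% higher. The part of these differences in cell markers in the interactions above was not tested.

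The other lists held few calls or none, where 1.99% of all genes were called. In the proteasome, Psmb10 alone was called of 36 tested genes, at -0.53 ± 0.12 (limma adjusted p = 0.0337, kept in 4 of 14 fits that each left out 1 more library), and Psmb8 had -0.10 ± 0.08. As labelled they had -0.08 ± 0.35 and 0.08 ± 0.16, and under quantile normalization Psmb10 had -0.04 (adjusted p = 0.958). Both are the deleted genes, whose dKO values are residual reads. Among 20 negative feedback genes, Tnip3, an inhibitor of NF-kappaB signalling, was above 0 (0.33 ± 0.08, limma adjusted p = 0.0318, kept in 3 of these 14 fits, and -0.64 ± 0.67 as labelled), and Socs2 (-0.43 ± 0.10, limma adjusted p = 0.0394, kept in 4, and -0.52 ± 0.27 as labelled) and Trib1 were below 0. None was called by limma among 15 genes of NF-kappaB and its inhibitors, of which 3 had an unadjusted p below 0.05, or among 13 chemokine and adhesion receptors, of which 2 did. None was called among 18 costimulation and maturation genes (5 with unadjusted p below 0.05), 17 MHC and peptide loading genes (0), 21 heat shock and unfolded protein genes (5), 21 cholesterol synthesis genes (1), 30 cell cycle genes (2) and 28 lysosome and phagocytosis genes (5). For comparison, 1394 of all 10902 genes had an unadjusted p below 0.05. The lysosome list had a median of 0.13, with 25 of 28 members above 0, against a median of -0.04 for all genes. Median-of-ratios scaling moved the median of all genes to 0.005, so counts of signs depend on the scaling.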

How the data were processed

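RNA-seq tables of 16 libraries were analysed. RPKM values were computed by the authors and are used as deposited. The second deposited value is a whole-number signal, read as aligned bases from the values alone (its ratio to RPKM was constant per gene and library, largest relative spread 8.58e-06), and it served only for depth. The submitters' processing notes name CASAVA 1.8.2 and mm9, while the aligner settings and annotation are not given in the sources used here. The 92 spike-in entries were left out, and 9 symbols on 23 entries were kept apart. Read counts are unknown, so no counting interval is given. Gene positions are the files' own, and promoters are RefSeq's of GRCm38.p6, matched by symbol.

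Genes with 1 RPKM or more in 4 of the 16 libraries were fitted as log2(RPKM + 0.5) with limma 3.58.1 (R 4.3.3), 4 group means, no covariate and an intensity trend (12 residual degrees of freedom, 10 without the 2 libraries). P-values of these two-sided tests were adjusted (Benjamini-Hochberg, all genes) and called below 0.05. Replicate numbers were not used as pairs in these fits. The 20 gene lists and 10 marker lists come from general knowledge, and the comparison, members and lists were chosen with earlier results of these data known. Named genes were, in each fit, the called genes with the 10 highest and 10 lowest estimates and a group mean of 5 RPKM or more (uncharacterised loci left out), up to 4 genes per list by adjusted p, Psmb8, Psmb10 and genes a statement needed. The text gives values for some of these. Alternatives were the pseudocount, scaling, filter, libraries in the fit, library weights, replicate blocks, the trend and leaving out each library.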

Additional observations from a re-analysis of the deposited data

Results flagged for a closer look

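Per-library levels of 19 genes were checked for a library far from the other 3 of its group, in 76 groups of 4. A library stood apart in 21 of them, where chance flags about 1 in 20 groups. Groups in which no library reached 1 RPKM count among the 76 but could not be flagged. Of these, 13 were the library labelled dKO no LPS replicate 2, with Isg15 at 432.4 RPKM, Ifit1 at 103.7, Rsad2 at 231.8, Cxcl10 at 1151.1, Ifnb1 at 692.0, Ereg at 44.7, Jun at 178.7, Tnf at 6059.8, Sap30 at 37, Dusp2 at 10, Gdf15 at 10.1, Klf2 at 6.8 and Il6 at 1124.3. Another 6 were the library labelled dKO 1h LPS replicate 2, with Isg15 at 1246.6, Ifit1 at 681.2, Rsad2 at 2100.2, Cxcl10 at 3607.4, Tnf at 4030.8 and Sap30 at 102.7. The remaining flags were Gdf15 in WT 1h LPS replicate 2 (93 RPKM) and Mul1 in WT no LPS replicate 4 (6.61 RPKM). The flags thus fell mostly on the pair of libraries whose profiles lay nearest to another time. The genes were named from the same data with these profiles known, so the flags are no separate evidence on the 2 libraries.

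The response differed between the genotypes by the interaction test in the genes given here, all of which were called in at least 1 of the fits. With all 16 libraries the values were -3.22 for Ifna1, 2.37 for Ppp1r3b, 1.36 for Tlr11 and -1.35 for Mul1. Without the 2 libraries they were -3.20 for Ifna1, 2.40 for Ppp1r3b, 1.38 for Tlr11 and -1.47 for Mul1. The interferon-inducible genes had 2.04 (Rsad2), 1.96 (Ifit1), 1.84 (Isg15), 1.57 (Cmpk2), 1.47 (Mx2), 1.46 (Ifit2), 1.24 (Cxcl10), 0.91 (Mx1), 0.89 (Gbp5), 0.87 (Irf7) and 0.51 (Stat2), and Irf5 had -0.43. Other genes above 0 were Id3 (2.24), Sap30 (1.70), Gem (1.61), Ereg (1.57), Jun (0.95), Tnfsf15 (0.81), Tnfsf4 (0.68), Tnf (0.62), Tlr2 (0.61), Slc2a1 (0.53), Id2 (0.49) and Tnip3 (0.33). Those below 0 were A4galt (-1.94), Dusp2 (-1.52), Cldn1 (-1.35), Gdf15 (-1.27), Dusp4 (-1.16), Gpr84 (-1.14), Orm2 (-1.12), Mad2l1bp (-1.07), Gpr183 (-1.07), Klf2 (-0.92), Trib1 (-0.80), Pfkfb3 (-0.76), Tgfbr1 (-0.55), Psmb10 (-0.53), Mapkapk3 (-0.47), Socs2 (-0.43) and Ebi3 (-0.40). The genes of the last part of this section had 1.17 (Mnda), 0.83 (Mndal), 0.83 (Ifi203), 0.75 (Ifih1), 0.71 (Ifi204), 0.72 (Pmaip1), -0.97 (Bcl2l1) and -0.88 (Bmf).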

How the results depend on the processing

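As labelled, 4 genes were called, with 7 at a pseudocount of 1, 12 without a filter, 2 with a filter at 5 RPKM and 253 with array weights, which gave the 2 libraries weights of 0.040 and 0.061. Leaving out single libraries gave 4 to 44 calls, the 44 without dKO no LPS replicate 2. Without the 2 libraries, 217 genes were called and single further libraries left out gave 144 to 224, the 144 without WT no LPS replicate 4. Quantile normalization gave 146 and leaving out WT replicate 2 as well gave 149. Fitting all times with the other 30 libraries gave 4. That fit holds 3 more dKO libraries nearest to another time than labelled, and without these (27 libraries, an alternative chosen after seeing the data) it gave 201. A replicate block within genotype gave 6 calls as labelled and 201 without the 2 libraries, and a block across genotypes 4 and 253. Replicate numbers were not treated as pairs, because not every same-number correlation was over 0.1. As labelled, 5 of 8 within and 3 of 16 between genotypes were, against 4 of 24 and 6 of 48 pairs of different numbers. Without the 2 libraries, 3 of 7 and 5 of 12 were, against 0 of 18 and 0 of 36. Libraries of the same number were thus more often alike without the 2 libraries, and the main fits do not model this. The block within genotype ended the calls of Trib1 (adjusted p = 0.0994) and Tnip3 (adjusted p = 0.0853). Of 53 named genes called without the 2 libraries, none reversed its direction in any setting tried with those 2 left out. With them, 8 had the opposite sign. The call was kept by 41 without each single library and by 34 in all settings that tested the gene but the 30-library fit. In that fit too, 3 kept it (Ifna1, Mul1 and Tlr11). Ifna1 and Tlr11, like Dusp4, passed the filter through WT libraries alone and were not tested with the filter at 5 RPKM. Ifna1 and Tlr11 were both near 0 RPKM in dKO, where little spread is possible, so their kept calls say little of stability. The estimate of Ifna1 ran from -5.15 to -2.38 over the settings. Read depth is unknown, so genes near 0 RPKM are given by library.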

Other observations

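The genes of this part were chosen after their values were seen, from those called without the 2 libraries, so they say nothing of the families they belong to. Ifih1, which encodes the RNA sensor MDA5, had an interaction of 0.75 ± 0.12 (limma adjusted p = 0.00307) and was at 9.82 ± 0.567 RPKM in WT and 6.53 ± 0.305 in dKO without LPS, then at 115 ± 12.1 and 131 ± 13.4 at 1 h. Of the interferon-inducible p200 family, neighbouring genes on chromosome 1 whose reads may be split among copies, Mnda had 1.17 ± 0.15, Mndal 0.83 ± 0.14, Ifi203 0.83 ± 0.16 and Ifi204 0.71 ± 0.11 (limma adjusted p = 0.000443, 0.00663, 0.011 and 0.00261). All 4 were lower in dKO before LPS, by -1.31, -0.72, -1.02 and -0.81, and differed by -0.14, 0.11, -0.19 and -0.10 at 1 h. As labelled none of these genes was called, with 0.13 ± 0.99 for Ifih1, 0.81 ± 0.73 for Mnda, 0.69 ± 0.64 for Mndal, 0.50 ± 0.66 for Ifi203 and 0.86 ± 0.44 for Ifi204.

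Of 3 genes known as regulators of apoptosis, Bcl2l1, which encodes the survival protein BCL-XL, was at 28.1 ± 2.47 RPKM in WT and 27 ± 1.89 in dKO without LPS and at 159 ± 8.68 and 78.3 ± 7.39 at 1 h, an interaction of -0.97 ± 0.11 (limma adjusted p = 0.000218). Bmf, a death-promoting member of the same family, was at 24.6 ± 0.963 and 23.6 ± 0.127 RPKM without LPS and 12.4 ± 0.685 and 6.24 ± 0.742 at 1 h, an interaction of -0.88 ± 0.10 (limma adjusted p = 0.000214). Pmaip1, the gene of NOXA, had 0.72 ± 0.12 (limma adjusted p = 0.00579) and -0.05 ± 0.54 as labelled, from 20.5 ± 1.24 RPKM in WT and 10.8 ± 1.32 in dKO without LPS. As labelled Bcl2l1 had -1.15 ± 0.33 and Bmf -0.68 ± 0.41, neither called.

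Outside the 16 libraries, the library labelled dKO 2h LPS replicate 2 had r = 0.968 with WT at 0 h and 0.823 with WT at 2 h. Isg15 stood in it at 5.49 RPKM, Ifit1 at 0.901, Tnf at 20.5 and Ppp1r3b at 22.9. No sample was moved to another group on these values.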
